A study of Mus musculus with 2 samples.

Results

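The genes described here encode the enzymes that modify and crosslink collagen: the lysyl oxidases Lox, Loxl1, Loxl2, Loxl3 and Loxl4, the lysyl hydroxylases Plod1, Plod2 and Plod3, the prolyl 4-hydroxylase subunit P4ha1 and the prolyl 3-hydroxylase P3h2. A gene was used where the platform annotation gave a probe set its symbol and no other, which held for 8 of the 10 listed genes, out of 22180 genes with such a probe set in all. Loxl2 and Plod3 were left out, since their probe sets carry several symbols. RNA was measured on 2 arrays, 1 for an Itih5 knockout skin model grown in 3 dimensions and 1 for its wildtype counterpart, both at day 7. Both models combined epidermal keratinocytes, plated on collagen type I dishes, with dermal fibroblasts, all passaged repeatedly after isolation from the skin of untreated adult mice. Strain, sex, the number of mice, the part of Itih5 removed and the scaffold of the model are not given by the labels.

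Collagen is modified inside the cell before it is secreted. Prolyl 4-hydroxylases stabilise the triple helix, prolyl 3-hydroxylases act on a small number of sites, and lysyl hydroxylases make the hydroxylysines that carry sugars and form crosslinks. All of these enzymes need iron, 2-oxoglutarate and ascorbate. Outside the cell the lysyl oxidases, which need copper, oxidise lysines and hydroxylysines of collagen and lysines of elastin, and the aldehydes so formed join into covalent crosslinks. In skin, dermal fibroblasts are the main source of fibrillar collagen, while keratinocytes make collagens of the basement membrane.

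Levels are given as probe set intensities, and differences on the log2 scale as knockout minus wildtype. Nearly all deposited values had lost their decimal point. It was put back by listing the places the digits allow and giving each pair of places a probability, so some genes have more than 1 possible value. A gene with a probability of at least 0.95 for 1 pair of places is called restored, and any other undecided. Some restored genes keep a less likely place at which their difference changes sign. Unless said otherwise, their values are given at the likeliest place. A gene is called expressed where the higher of its intensities reached 46.5, the median of all restored values. Restored intensities ran from 18.3 to 14117 in the knockout and from 18.5 to 15400 in the wildtype model, with 5th percentiles of 21.4 on both. With 1 array per model there is no replicate error, no difference was tested and no p-value is given. Itih5 itself was under the expression threshold on both arrays (30.4 in the knockout against 29.8 in the wildtype model), so its probe set checks neither label.

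The label of the models was set against markers of their cells. Keratinocyte and fibroblast genes were well expressed on both arrays, among them Krt14, a basal keratin (4076 in the knockout against 9538 in the wildtype model), and Pdgfra, a growth factor receptor of fibroblasts (1988 in the knockout against 1025 in the wildtype model). All 14 restored and expressed keratinocyte markers were below 0, and 6 reached 2-fold. Krt1 passed the threshold only through its wildtype value (39.8 in the knockout against 54.7), so its direction was set by that rule. The median difference of the 14 was -0.93, and their intensities summed to 19071 in the knockout against 41548 in the wildtype model. Of 8 expressed and restored fibroblast markers that encode neither collagen nor its enzymes, 7 were above 0 and 1 reached 2-fold, and the median was 0.74. Pdgfrb and Prrx1, and the keratinocyte markers Trp63 and Itgb4, were expressed but undecided and could lie on either side of 0. The fibroblast markers Fap, Meox2, Tcf21 and Dpp4 were under the threshold on both arrays. The summed intensity of the restored fibroblast markers was 11921 in the knockout against 7112 in the wildtype model. Fewer cells of a type and less RNA per cell cannot be told apart in such bulk samples. The part of this shift in the results that follow was not tested. Markers of other cell types differed too, and their part was not tested either. Of 7 restored endothelial markers 2 were expressed, with Kdr at 87.4 in the knockout against 36.1, under the threshold, in the wildtype model, while the defining genes Pecam1 and Cdh5 were under it on both arrays. Of 6 restored macrophage and leukocyte markers 3 were expressed, with Cd14 at 551 in the knockout against 240.2 in the wildtype model, Cd68 at 861 in the knockout against 1161 in the wildtype and Lyz2 at 151 in the knockout against 203 in the wildtype, and Adgre1 and Csf1r were under the threshold on both. Of 7 melanocyte markers 4 were expressed, 3 of them above 0 and Sox10 below it (51.3 in the knockout against 66.4 in the wildtype). The intensities of the 7 summed to 1379 in the knockout against 546 in the wildtype model. Mlana gave 705 of this in the knockout and 109 in the wildtype, whereas Dct, Tyr and Tyrp1 were under the threshold on both arrays. Of 6 adipocyte markers 3 were expressed and the sums were 5644 in the knockout against 1362 in the wildtype model, of which Fabp4 gave 4974 in the knockout and 816 in the wildtype, whereas Adipoq was under the threshold on both arrays. Of 5 restored smooth muscle and pericyte markers 3 were expressed, and the sums were 249.9 in the knockout against 248 in the wildtype model.

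The enzyme genes mostly read higher in the knockout model. All 8 were above the expression threshold on both arrays. At every place their decimal points could take, 4 were higher by at least 2-fold (Lox, Loxl1, Loxl3 and Plod1) and 0 at least 2-fold lower, against backgrounds of 3.28% higher and 2.96% lower among 13768 expressed genes under the same rule. Plod2 was also above 0, P3h2 was below 0, and P4ha1 and Loxl4 read higher at their likeliest place and lower at another. Counting only the 6 restored genes, 2 were higher by at least 2-fold and 0 lower, where 3.87% and 3.28% of 12700 restored expressed genes were. Of the 6, 5 were above 0, as were 54.3% of those genes. The median difference of the 6 was 0.81, beside 0.04 over all restored expressed genes.

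**Figure D1:**
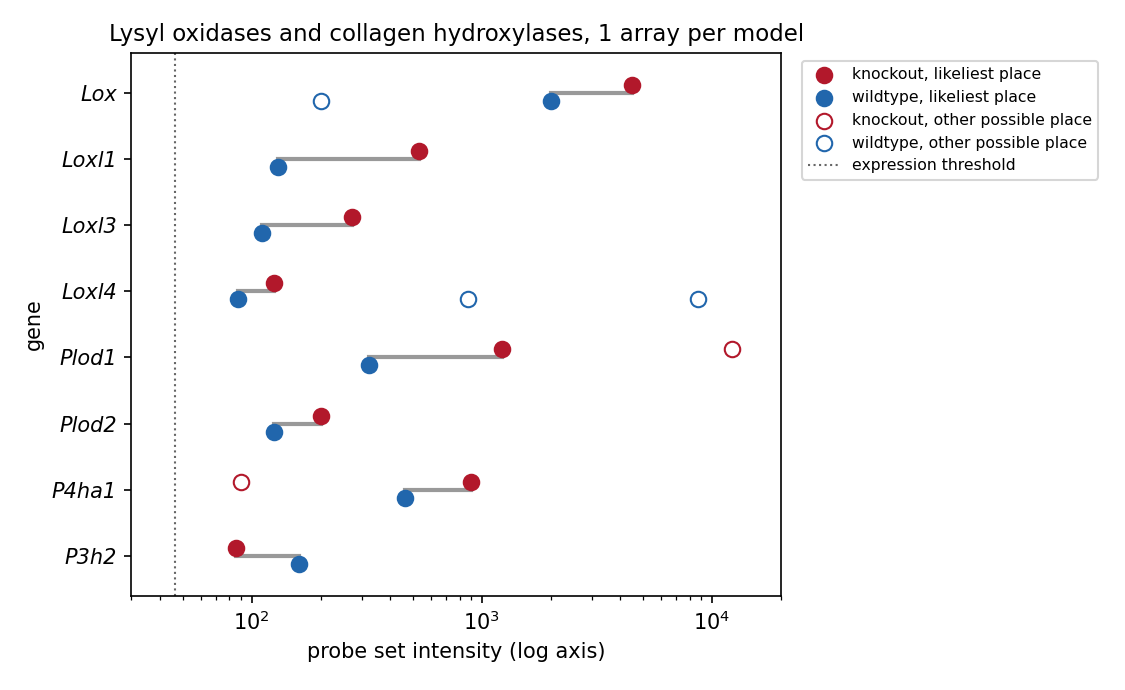
Intensity of the 8 genes with a probe set of their own on a log axis, 1 row per gene, red for the knockout and blue for the wildtype model, with 1 array each. Filled points mark the likeliest place of the decimal point, open points other possible places, and the dotted line the expression threshold of 46.5. Lox, Loxl1, Loxl3 and Plod1 are higher in the knockout model by 2-fold or more wherever the point is set, and P3h2 alone lies lower at its likeliest place.

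Promoter sequences from the RefSeq promoter table are shown for 3 of these 8 genes, Plod1, P4ha1 and Loxl4. Promoters of the other genes, Lox among them, were not searched. The 3 genes shown span a wide range of differences, 1.92 for Plod1, 0.95 for P4ha1 and 0.53 for Loxl4 at the likeliest places. P4ha1 is a textbook target of hypoxia-inducible factors. Capitals mark the letters of the hypoxia response core, ACGTG or GCGTG, searched on both strands in the 250 bases before the RefSeq start (build GRCm38.p6), each written 5′ to 3′ in the direction of the gene.
Plod1, chr4:147936777-147937026, minus strand: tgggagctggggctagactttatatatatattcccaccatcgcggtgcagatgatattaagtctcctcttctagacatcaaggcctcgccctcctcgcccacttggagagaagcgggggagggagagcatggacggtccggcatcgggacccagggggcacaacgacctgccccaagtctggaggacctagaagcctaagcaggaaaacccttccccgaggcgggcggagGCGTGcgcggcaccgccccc
P4ha1, chr10:59323046-59323295, plus strand: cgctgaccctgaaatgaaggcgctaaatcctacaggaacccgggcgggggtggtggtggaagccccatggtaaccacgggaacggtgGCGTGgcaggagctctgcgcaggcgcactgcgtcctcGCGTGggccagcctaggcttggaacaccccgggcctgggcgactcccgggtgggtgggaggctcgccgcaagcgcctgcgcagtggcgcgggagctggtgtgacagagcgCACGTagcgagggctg
Loxl4, chr19:42612807-42613056, minus strand: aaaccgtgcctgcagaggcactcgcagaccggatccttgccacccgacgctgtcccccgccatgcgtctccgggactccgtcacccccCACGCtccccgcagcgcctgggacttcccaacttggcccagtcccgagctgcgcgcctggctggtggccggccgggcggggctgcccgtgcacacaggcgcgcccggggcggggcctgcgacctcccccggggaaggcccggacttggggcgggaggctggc

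The P4ha1 window held 3 such cores. Of these, 2 read GCGTG on the gene's own strand, starting 163 and 126 bases before the start, and 1 was ACGTG on the other strand, 16 to 12 bases before it. Plod1 had 1 core, GCGTG, 20 to 16 bases before the start, and Loxl4 had 1 on the other strand, 162 to 158 bases before it. Of 32851 promoter windows in the table, 38.6% hold at least 1 of these cores and 16.6% hold ACGTG. The GC box GGGCGG occurred 3 times in the Loxl4 window, 2 times in that of Plod1 and 1 time in that of P4ha1, and in 32.7% of all windows. TATAAA occurred in the Plod1 window, on the other strand, and in 12.4% of all windows. A match of letters is not a bound site.

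Of the lysyl oxidases, Loxl1 stood farthest from 0 at the likeliest places, though other possible places of Lox and Loxl4 lie farther. Loxl1, which is known for the upkeep of elastic fibres and binds fibulin-5, read 532 in the knockout model, against 130.0 in the wildtype model, with 1 possible place on each array. That is a log2 difference of 2.03, or 4.09-fold, and 49 of the 12700 expressed genes (0.386%) had a larger one. Its partner Fbln5, the fibulin-5 gene, read 189 in the knockout against 97.9 in the wildtype model, a difference of 0.95. Eln, the elastin gene whose product Loxl1 helps to crosslink, did not share the direction: it read 43.9 in the knockout model, under the threshold, and 55.6 in the wildtype model.

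Loxl3, a lysyl oxidase that also acts on fibronectin in muscle development in the mouse, read 272 in the knockout against 110.4 in the wildtype model, again with 1 possible place on each array. The log2 difference was 1.30 (2.47-fold), and 1.85% of expressed genes had a larger one. The difference of Loxl1 exceeded that of Loxl3 by 0.73 on the log2 scale and that of Loxl4 by 1.51.

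Lox, the founding member of the family, read 4498 in the knockout model. In the wildtype model the digits allow 1989 (probability 0.944) or 199 (probability 0.0564), so the gene is undecided by a narrow margin. The difference is 1.18 (2.26-fold) at the first place and 4.50 (22.6-fold) at the second. It lies higher in the knockout model at both, and 2.26-fold is the smaller of the possible values.

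Loxl4 differed least among the lysyl oxidases at the likeliest places. It read 125 in the knockout against 86.7 in the wildtype model, a difference of 0.53 (1.44-fold), with a probability of 0.969. The wildtype value could also be 867 (probability 0.0311) or 8670, where Loxl4 would be lower in the knockout model, and its direction rests on the probability alone.

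Among the hydroxylases, Plod1 differed more between the models than Plod2. Plod1, which hydroxylates lysines within the helix, read 1223 in the knockout against 323 in the wildtype model at the likeliest places (probability 0.946), a difference of 1.92 (3.78-fold). The other possible knockout value is 12227, with a difference of 5.24, so the gene is higher in the knockout model at both places and at least 2-fold. Plod2, which hydroxylates the telopeptide lysines that enter mature crosslinks, read 200.5 in the knockout against 125 in the wildtype model, each with 1 possible place. Its difference of 0.68 (1.60-fold) is under 2-fold, and 9.13% of expressed genes had a larger one. The likeliest Plod1 difference exceeds that of Plod2 by 1.24 on the log2 scale.

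P4ha1, a catalytic subunit of prolyl 4-hydroxylase, read 896 in the knockout against 465 in the wildtype model, a difference of 0.95 (1.93-fold). That reading has a probability of 0.957, close to the required minimum. The other possible knockout value, 89.6, would put the gene at -2.38, lower in the knockout model. At the likeliest place P4ha1 lies just under the 2-fold rule, and Lox, at 1.18, is the nearest of the 8 genes above it.

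P3h2 was the 1 enzyme gene of the 8 that read lower at its likeliest place. P3h2, which hydroxylates collagen IV of basement membranes, read 85.0 in the knockout against 161 in the wildtype model, with 1 possible place on each array. The difference was -0.92, 1.89-fold lower in the knockout model and under 2-fold, and 96.2% of expressed genes had a higher one. Of the 14 keratinocyte markers 7 had a lower difference than P3h2, whereas all 8 fibroblast markers had a higher one. Loxl1 and, at its likeliest place, Plod1 had larger differences than any of these 8 markers, the highest of which was Twist2, a transcription factor gene, at 1.63. Loxl3 was below Twist2 and above the other 7, as was Lox at its likeliest place but not at its other one, and Loxl4 at its likeliest place was below 5 of the 8.

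**Figure D2:**
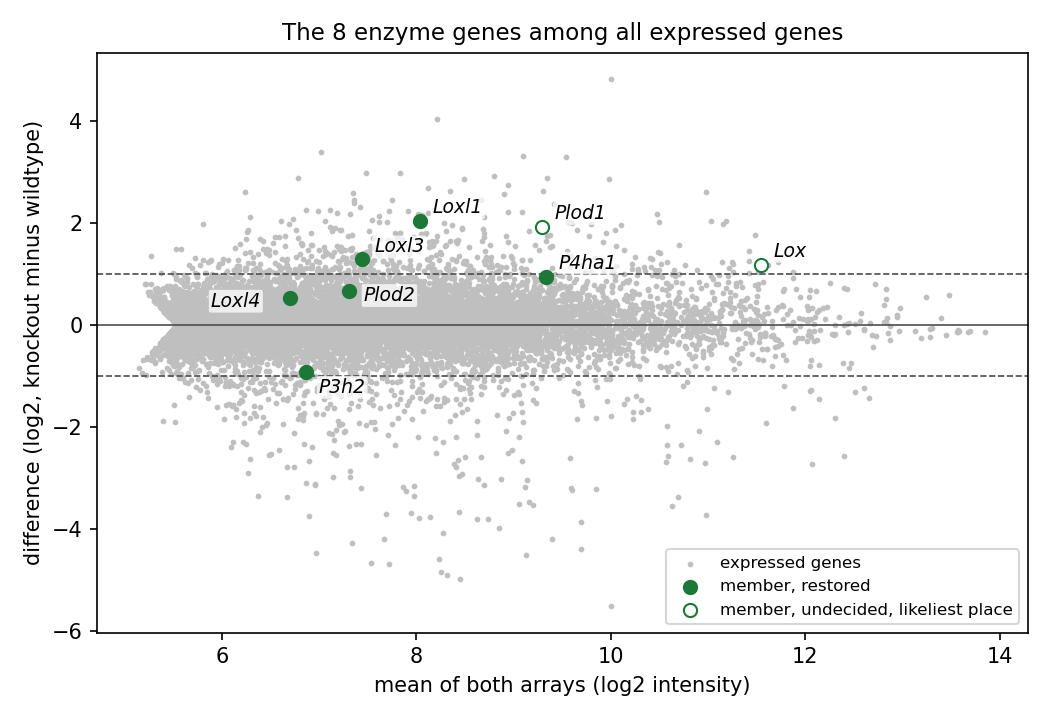
Difference between the models (log2, knockout minus wildtype) against the mean of both arrays (log2 intensity) for the 12700 expressed genes in grey and the 8 enzyme genes in green, filled where restored and open where undecided and drawn at the likeliest place. Dashed lines mark 2-fold. Loxl1, Plod1, Loxl3 and Lox lie above the upper line, and P3h2 lies just inside the lower one.

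Other collagen hydroxylases and their partner proteins also mostly read higher in the knockout model. This list held 8 expressed and restored genes, of which 4 were higher by at least 2-fold, 0 were lower by that much and 7 were above 0, and its median was 1.07. P4hb, the protein disulphide isomerase that forms the second subunit of prolyl 4-hydroxylase, read 3454 in the knockout against 1471 in the wildtype model (1.23). The catalytic subunit P4ha2 read 246 in the knockout against 109.5 in the wildtype model (1.17), though a less likely place puts it at -2.16. P4ha3 read 69.5 in the knockout and 41.6, under the threshold, in the wildtype model.

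The complex that 3-hydroxylates fibrillar collagen consists of P3h1, Crtap and the cyclophilin Ppib. Crtap read 1817 in the knockout against 618 in the wildtype model, a difference of 1.56, and P3h1 read 333 in the knockout against 137 in the wildtype model (1.28). Ppib, a prolyl isomerase with further roles, read 5206 in the knockout against 4135 in the wildtype model (0.33). P3h1 and P3h2, enzymes of the same family, thus lay on opposite sides of 0, 2.20 apart on the log2 scale. Of the pair that forms a complex with the Plod1 product in mice, P3h3 read 398 in the knockout against 204 in the wildtype model (0.97), whereas P3h4 read 241 in the knockout against 299 in the wildtype model (-0.31).

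Genes that fold and export collagen had a median of 0.54, and 4 of 9 expressed and restored ones were higher by at least 2-fold and 0 lower by that much. They were Fkbp14 (225 in the knockout against 86.7 in the wildtype model) and Fkbp7 (477 in the knockout against 217 in the wildtype model), both prolyl isomerases of the endoplasmic reticulum, the collagen-binding glycoprotein gene Sparc (2206 in the knockout against 965 in the wildtype model) and the collagen chaperone gene Serpinh1. Serpinh1, whose product is HSP47, read 819 in the knockout against 382 in the wildtype model, a difference of 1.10. Fkbp14 keeps a less likely place at which its difference is -1.95. The gene nearest to 0 was Sec23a, a coat component of export vesicles, at -0.04.

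Genes for the removal of procollagen propeptides were all above 0 among the 6 expressed, with a median of 0.75. Adamts3 passed the expression threshold only through its knockout value (64.6 in the knockout against 35.9 in the wildtype model). Its direction was therefore set by that rule. Tll2 was under the threshold on both arrays, and without an expression filter the median of 7 genes was 0.65. Pcolce, which enhances the action of the protease BMP1, was the 1 gene at least 2-fold higher, with 537 in the knockout against 255 in the wildtype model. Bmp1, whose product also cleaves the precursor of lysyl oxidase, read 2183 in the knockout against 1207 in the wildtype model, a difference of 0.86 and under 2-fold. Adamts14 was nearest to 0, at 0.28.

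The genes of the substrates also read mostly higher in the knockout model. Of 12 expressed and restored collagen and elastin genes, 5 were higher in the knockout model by at least 2-fold and 0 lower, and their median was 0.94. Col12a1, a collagen on fibril surfaces, read 1163 in the knockout against 197 in the wildtype model (2.56). It was followed by Col6a2 (1.85), Col4a2 of the basement membrane (1.66), Col1a1 (1.29) and Col5a2 (1.01). Loxl1 had a larger difference than 11 of the 12 substrates and exceeded Col1a1 by 0.74, while Plod2 had a smaller one than 9 of them. Col16a1 was nearest to 0, at 0.28. The list leaves out Col4a1 and Col6a1, which were undecided and could lie on either side of 0.

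Elastic fibre genes and partners of lysyl oxidase went both ways. Of 12 expressed and restored genes, 2 were higher and 1 lower by at least 2-fold, and the median was 0.59. Fn1, whose product fibronectin binds lysyl oxidase, read 2910 in the knockout against 712 in the wildtype model (2.03), and the microfibril gene Mfap5 read 111 in the knockout against 51.0 in the wildtype model (1.13). Efemp1, the fibulin-3 gene, read 187 in the knockout against 835 in the wildtype model (-2.16). Ltbp2, a latent TGF-beta binding protein gene, was nearest to 0, at -0.09.

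**Figure D3:**
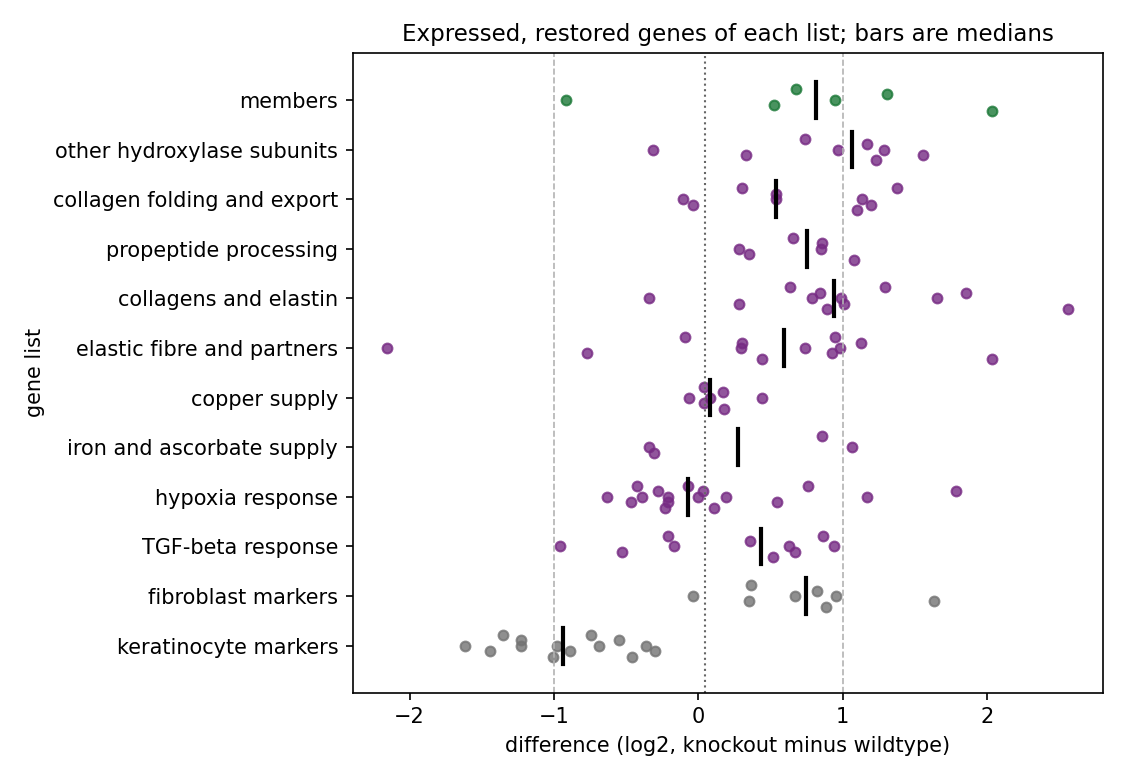
Difference between the models (log2, knockout minus wildtype) of the expressed and restored genes in each list, 1 point per gene, with a black bar at the list's median; the points' height within a row carries no value. The dotted line is the median of all expressed genes (0.04) and dashed lines mark 2-fold. The medians of the enzyme genes (0.81) and substrates (0.94) lie right of the dotted line. So does that of other hydroxylases and partner proteins (1.07), labelled other hydroxylase subunits. Those of copper supply (0.08) and hypoxia response genes (-0.07) lie close to it, and that of keratinocyte markers (-0.93) lies left of it.

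Genes of cellular copper handling, of which some serve other copper enzymes, were close to equal. None of 7 expressed and restored genes was 2-fold apart, and their median was 0.08. The highest was the copper transporter gene Slc31a2, at 0.44, and Ccs, a copper chaperone gene, was nearest to 0, at 0.04. Atp7a, the pump that loads copper onto secreted enzymes such as lysyl oxidase, was undecided and is not among the 7.

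Of the genes for iron and ascorbate supply only 4 were expressed and restored. Slc23a2, an ascorbate transporter, read 472 in the knockout against 226 in the wildtype model, a difference of 1.06, each with 1 possible place. Slc11a2, an iron transporter, read 846 in the knockout against 467 in the wildtype model (0.86). The other 2 were below 0, Slc23a3, a relative of the ascorbate transporters, at -0.34 and Gsto1, a glutathione transferase that can reduce dehydroascorbate, nearest to 0 at -0.30. The possible places of Gsto1 run from -3.63 to 3.02. The list's median of 0.28 turned to -0.0414 when every probe set was taken at its likeliest place. Gulo, which makes ascorbate in mouse liver, was under the threshold on both arrays.

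Hypoxia induces Lox, Loxl2, Plod2, P4ha1 and P4ha2 in many cells. In the list of hypoxia response genes, which also holds P4ha2, 7 of 17 expressed and restored ones were above 0, with a median of -0.07. The part of hypoxia in the differences was not tested. At least 2-fold higher were P4ha2, described above, and the mitophagy gene Bnip3, with 505 in the knockout against 147 in the wildtype model (1.78), and 0 were at least 2-fold lower. Pgk1, a glycolytic enzyme gene, was nearest to 0, with 3585 in the knockout against 3594 in the wildtype model, and the prolyl hydroxylase gene Egln3 was lowest, at -0.64. Ndrg1, Pfkfb3 and Pfkfb4 were expressed but undecided and could lie on either side of 0. None of 10 expressed and restored TGF-beta response genes was 2-fold apart, 6 were above 0, and the median was 0.43. The list lay between Tgfbi, at -0.96, and Ccn1, at 0.94, with Skil nearest to 0, at -0.17. Tgfb1 and Acta2 were expressed but undecided and could lie on either side of 0.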

How the data were processed

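The deposited values are probe set intensities of 2 Affymetrix-labelled arrays. Per the labels' protocols, RNA was DNase-treated, amplified to sense-strand cDNA and labelled with biotin. Scanner software, probe set summary and normalization between arrays are not stated by the labels or the file. The decimal point was missing from 67457 of 67586 values. A place was possible if the number was in the shortest single-precision form, equalled 2 raised to a single-precision exponent, and lay between 18 and 20000. Pairs of places were weighted by the joint distribution of mean level and absolute difference (bins of 0.5 and 0.25 log2, 25 rounds), with a factor of 2 for exponents from 8 up, which are spaced wider. This restored 31866 of 33793 probe sets (94.3%), with 53.2 wrong places expected. The procedure was tested on simulated data made from its own restored values, which cannot show that the places in the real data are right. Range, bins and minimum probability were chosen with the values in view.

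Medians were 46.3 in the knockout against 46.7 in the wildtype model, and no further normalization was applied. Exactly 1 symbol was given for 23521 probe sets, several for 1814, and 8458 were unnamed. The probe set with the highest mean stood for a gene. The number of arrays limits the precision. All 10 listed genes are named. From each other list the genes at least 2-fold apart (at most 6 per direction) and the one nearest to 0 are named. Other named genes, such as Eln, Fbln5, Bmp1, Ppib, P3h3, P4ha3 and the supply and marker genes, were chosen after their values were seen. The 8 genes and all lists were chosen with earlier results of these data known. Python 3.11.15, numpy 2.4.6 and pandas 2.3.3 were used.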

Additional observations from a re-analysis of the deposited data

How the results depend on the processing

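No paired analysis was possible because both genotypes have a single array, so none could be left out either. Of 59 differences of restored enzyme genes under alternatives, 59 moved by at most 0.25 log2 and 0 reversed, though P4ha1 was undecided at a minimum probability of 0.99, where 1 place was required, with finer bins and without the spacing factor, and Loxl4 under the first 2 of these. Loxl4 was also dropped by the 75th percentile filter. Each enzyme gene has 1 probe set, so most of these settings could only keep or drop its value. Values themselves were changed only by median centring, quantile normalization and an added pseudocount. The count of 59 unmoved differences was therefore largely fixed in advance. The count of enzyme genes higher in the knockout model was 2 of 6 in the main analysis. It was 4 of 8 at every likeliest place and 4 of 8 when required at every possible place. These sets of 8 add the undecided Lox and Plod1. The count was 4 of 6 at 1.5-fold, 1 of 6 at 3-fold and 3 of 6 with finer bins, which restored Lox. The count lower was 0, against 1 at 1.5-fold. The list medians that moved by more were few. A minimum probability of 0.99 gave 0.74 for the other hydroxylases and partner proteins, 0.92 for elastic fibre genes and 0.53 for iron and ascorbate supply. With 1 possible place only, elastic fibre genes had 0.95. Every likeliest place gave 0.79 for folding and export and turned iron and ascorbate supply to -0.0414. Without an expression filter elastic fibre genes had 0.30, and with the 75th percentile filter iron and ascorbate supply had 0.86. These alternatives change which genes are counted. Over all expressed genes, 491 were higher and 416 lower by at least 2-fold, of 12700. With 1 possible place only they were 304 and 286, of a smaller set of 8197. At every likeliest place they were 675 and 596 of 13554, and with finer bins 484 and 413 of 12676. Of 12700 genes, 1482 were higher and 1051 lower at 1.5-fold, and 129 and 181 at 3-fold. The settings with every possible place, finer bins and no spacing factor were chosen after seeing the data. Differences may be compressed for intensities close to the 5th percentile, 21.4, which was not measured.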
